A study of Rattus norvegicus with 9 samples.

Results

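The genes that bring iron into liver cells, store it, let it out again and set the level of hepcidin were followed in the livers of 9 male Sprague-Dawley rats. The 10 genes were taken by symbol, which were Hamp, Bmp6, Tfr2, Tfrc, Tf, Slc39a14, Slc11a2, Slc40a1, Fth1 and Ireb2, and they matched 11 of the 32883 gene identifiers in the deposited table because Slc40a1 is listed under 2 identifiers. There were 3 normal control rats on a normal diet without the carcinogen, 3 DEN model rats given weekly intraperitoneal injections of 0.01% diethylnitrosamine (DEN, a carcinogen of the liver) on a schedule planned for 16 weeks, and 3 PZH administration rats given the same DEN with Pien Tze Huang (PZH, a formula of traditional Chinese medicine). The groups were read from the letter in each rat's name (N, M or G), since GEO's treatment tag names PZH for DEN model rats as well. The PZH dose and the week at which the sequenced rats were killed are not given in the sources used here, and the study used 2 PZH doses and killed rats at 3 times, so how long each of these rats was dosed is not known. Each library was made from liver tissue as a whole, so fewer cells of a type and less RNA per cell cannot be told apart.

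Hepcidin, the product of Hamp, is a hormone made by hepatocytes that binds ferroportin (Slc40a1), the iron exporter, and has it broken down, so that less iron leaves macrophages, hepatocytes and the gut. Hepatocytes raise Hamp when transferrin carries much iron, which is sensed by transferrin receptor 2 (Tfr2) and Hfe, and when BMP6 and BMP2 from liver endothelium signal through SMAD proteins with hemojuvelin (Hjv) as co-receptor. Inflammation raises Hamp through interleukin-6 and STAT3. Iron enters on transferrin (Tf) through transferrin receptor 1 (Tfrc) or without transferrin through ZIP14 (Slc39a14), leaves endosomes through DMT1 (Slc11a2), and is stored in ferritin, whose heavy chain is Fth1. The iron regulatory proteins, encoded by Aco1 and Ireb2, bind the messages of Tfrc and of ferritin when iron is scarce.

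The promoters of Hamp and Tfrc are shown because these genes, the hormone and the main uptake receptor, were called in opposite directions in the DEN model. Each is the 250 bases before the transcription start in RefSeq (GRCr8), written 5′ to 3′ on the strand of the gene. Capitals mark the letters GGCGCC, the core of the BMP-responsive element known from the hepcidin promoter, and TTCTTGGAA, the STAT site known from the same promoter.
Hamp: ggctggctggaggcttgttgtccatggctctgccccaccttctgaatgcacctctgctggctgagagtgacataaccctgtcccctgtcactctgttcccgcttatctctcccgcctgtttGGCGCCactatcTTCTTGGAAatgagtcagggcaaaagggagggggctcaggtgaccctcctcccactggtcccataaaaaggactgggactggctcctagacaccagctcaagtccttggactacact
Tfrc: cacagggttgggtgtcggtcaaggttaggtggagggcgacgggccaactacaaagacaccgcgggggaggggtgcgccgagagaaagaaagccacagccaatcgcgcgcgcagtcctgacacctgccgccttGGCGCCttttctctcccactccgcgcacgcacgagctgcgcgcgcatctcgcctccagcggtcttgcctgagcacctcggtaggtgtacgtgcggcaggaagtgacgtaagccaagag
The Hamp window is chr1:95300272-95300521 on the minus strand and holds GGCGCC 129 bases and TTCTTGGAA 117 bases before the start, without overlap. The Tfrc window is chr11:81690319-81690568 on the minus strand and holds GGCGCC 118 bases before the start. Windows were found for 8 of the 10 genes (9 windows, with Slc11a2 having 2), and GGCGCC was in those of 2 genes and TTCTTGGAA in that of 1. Slc39a14 and Fth1 had no window. Searched on both strands (GGCGCC reads the same on each), GGCGCC was in 8.69% and TTCTTGGAA in 0.469% of 33469 promoter windows of this length, and 3 windows held both.

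Library totals ranged from 16115709 to 16412520 counts in the normal control, 15259441 to 16641954 in the DEN model and 14922973 to 27161496 in the PZH administration group, where rat 27 was the deepest. Levels per rat are CPM, the counts scaled to a common library size, with library sizes adjusted by edgeR's TMM factors. A gene was called when edgeR's quasi-likelihood test gave a Benjamini-Hochberg adjusted p under 0.05 over all genes tested. The TMM factors were 0.731 to 0.799 in the normal control, 0.863 to 0.941 in the PZH administration and 1.21 to 1.58 in the DEN model group, so the choice of scaling mattered: with plain library totals the median gene moved by a log2 value of 0.87 in DEN model against normal control and by -0.67 in PZH administration against DEN model. Hepatocyte markers (Alb, Ttr, Apoa1, Serpina1, Cps1 and Hnf4a) summed to 45170 to 52490 FPKM in normal, 15520 to 28340 in DEN model and 41040 to 58550 in PZH administration rats. Alb made up most of each sum (39120 of 52490 FPKM in normal rat 1). Against the normal control, edgeR called 3 of the 6 markers lower in the DEN model and 0 higher, where 45.8% of all genes were called. Apoa1 was not called (log2 -0.30, edgeR adjusted p = 0.551), at 1977, 1126 and 1849 FPKM in normal rats 1, 3 and 12 and 2101, 3052 and 1801 in DEN model rats 13, 17 and 24.

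In the DEN model livers, hepcidin and transferrin receptor 2 fell while transferrin receptor 1, ferroportin, ferritin heavy chain and Bmp6 rose. Of the 11 identifiers, 5 were called higher and 4 lower against the normal control, where 45.8% of all 14255 genes tested were called, 25.3% higher and 20.5% lower. CPM did not overlap between the groups for 10 of the 11 identifiers, against 58.8% of all genes. Their log2 fold changes had a median of -0.34, and those of all genes tested a median of 0.03. At the study's own thresholds, a change of more than 2 log2 units either way at an unadjusted P under 0.001, Hamp and Tfr2 were called, 2 of the 11, where 12.3% of all genes were. With library totals in place of TMM factors, 6 were called higher and 2 lower, with Slc11a2 added to the higher genes and Slc39a14 and Ireb2 lost from the lower ones.

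**Figure D1:**
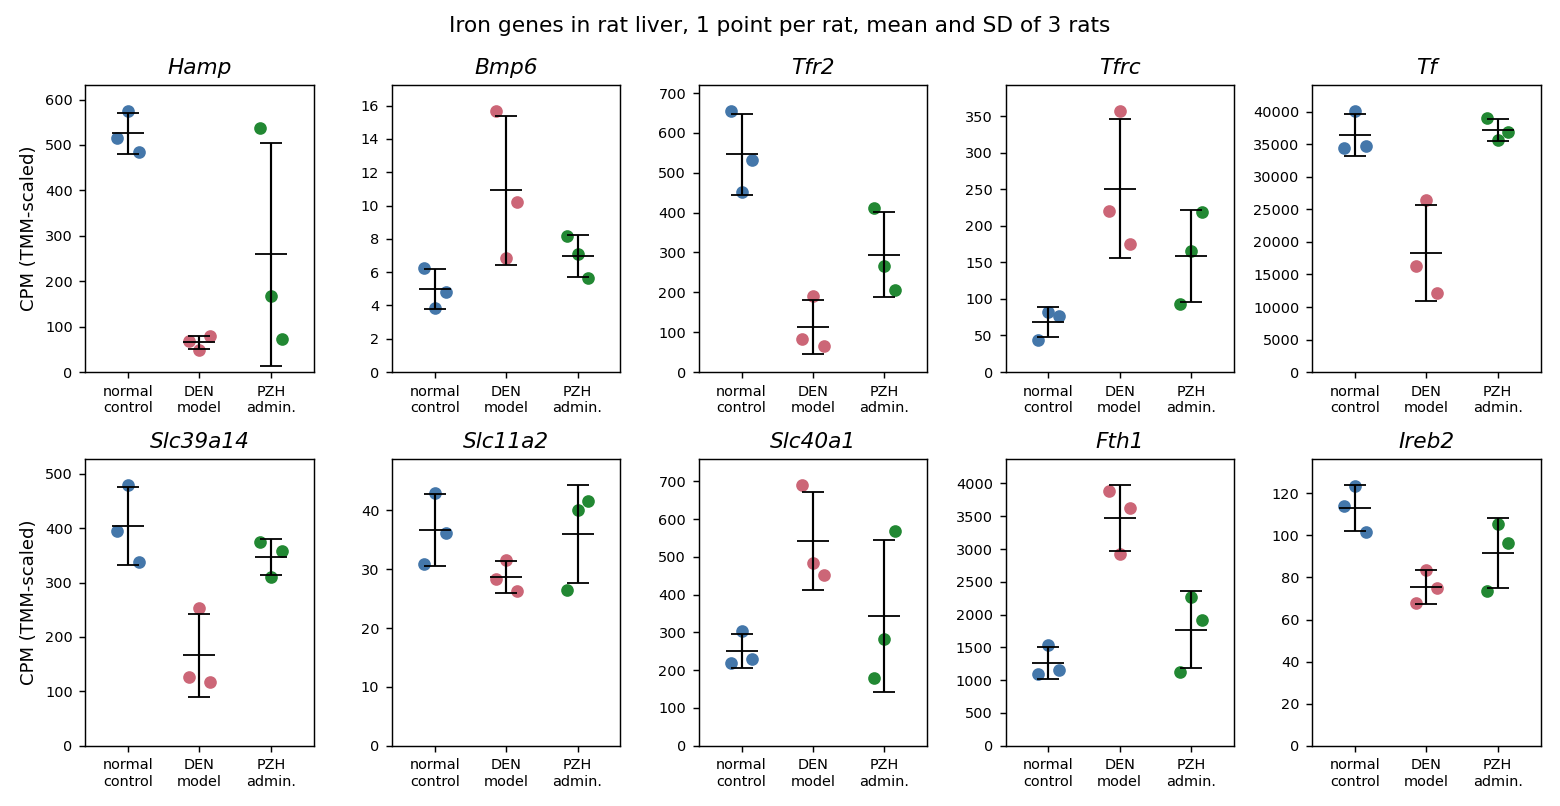
CPM (TMM-scaled) of the 10 iron genes in each rat, on linear axes from 0, with 1 point per rat, a wide bar at the mean and whiskers of 1 SD over 3 rats. Hamp fell from 485 to 575 CPM in the normal control rats to 49.2 to 78.7 in the DEN model rats, and the 3 PZH administration rats ran from 73.4 to 538.

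Hamp (ENSRNOG00000021029, chr1:89368021-89369960 in the table, whose genome build is not given in the sources used here) stood at 516, 575 and 485 CPM in normal control rats 1, 3 and 12, at 68.3, 49.2 and 78.7 in DEN model rats 13, 17 and 24, and at 538, 167 and 73.4 in PZH administration rats 27, 28 and 42. The normal and DEN model rats lay far apart, and the PZH administration rats covered the range of both, 1 at the normal level and 1 at the DEN level. Hamp was 7.94-fold lower in the DEN model than in the normal control, a log2 fold change of -2.99 ± 0.26 (SE, n = 3 rats a group, edgeR adjusted p = 0.000142). Its FPKM rank among all genes of a rat was 56 to 61 in normal, 180 to 369 in DEN model and 45 to 324 in PZH administration rats.

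Bmp6, the ligand that reports liver iron stores to hepatocytes (chr17:26955142-27112820), was at 6.25, 3.86 and 4.81 CPM in normal, 15.7, 6.84 and 10.2 in DEN model and 8.19, 7.10 and 5.63 in PZH administration rats. It was scarce in every rat, with 46 to 369 counts. Bmp6 rose 2.22-fold in the DEN model (log2 1.15 ± 0.34, edgeR adjusted p = 0.0228), opposite in sign to Hamp. The call was lost without DEN model rat 13 (log2 0.80, adjusted p = 0.106), without normal rat 12 (adjusted p = 0.0671) and without normal rat 3 (adjusted p = 0.0696).

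Bmp2, the other BMP ligand of the liver endothelium, went the other way from Bmp6, from 30.0 ± 2.24 CPM in the normal control to 11.03 ± 2.40 in the DEN model (log2 -1.42 ± 0.21, edgeR adjusted p = 0.00104). Hjv, the BMP co-receptor, fell from 129 ± 34.6 to 37.7 ± 26.7 CPM (log2 -1.76 ± 0.45, adjusted p = 0.0134). Tmprss6, a protease of hepatocytes that cuts hemojuvelin and restrains hepcidin, fell from 569 ± 99.8 to 132 ± 49.9 CPM (log2 -2.09 ± 0.32, adjusted p = 0.00128). Genes known to raise hepcidin (Bmp2, Hjv and Tfr2) and a gene known to lower it (Tmprss6) were thus lower in the same livers. Hfe, the partner of Tfr2, was not called (log2 -0.62 ± 0.32, adjusted p = 0.15).

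Among the 16 tested genes of the list for hepcidin and its BMP-SMAD and transferrin-sensing inputs, 1 was called higher (Bmp6) and 7 lower, with a median log2 fold change of -0.37. That was 50% of the list, near the 45.8% of all genes. The other lower ones, beside Hamp, Tfr2, Tmprss6, Hjv and Bmp2, were Furin, a protease that processes hemojuvelin and hepcidin (log2 -1.18), and Acvr2a, a type II BMP receptor (log2 -0.76 with TMM factors but 0.12 with library totals). With library totals 8 genes of this list were higher and 5 lower, beside a median of all genes of 0.89. Erfe, which encodes the erythroid hormone erythroferrone, had 0 counts in each normal rat, 6, 0 and 10 in the DEN model and 3, 0 and 1 in the PZH administration rats, too few to test.

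Genes that BMP-SMAD signalling is known to switch on did not move together. Id1, a classic target, rose from 4.73 ± 1.90 to 12.5 ± 2.79 CPM (log2 1.42 ± 0.34, edgeR adjusted p = 0.009). Atoh8, a transcription factor with a role in hepcidin control, fell from 53.0, 35.2 and 48.3 CPM to 8.88, 13.3 and 4.95 (log2 -2.32 ± 0.34, adjusted p = 0.00115). Smad6, a feedback inhibitor, also fell (log2 -0.86 ± 0.26, adjusted p = 0.0257), and Smad7, the inhibitor that most directly limits hepcidin, was not called (log2 -0.63 ± 0.29, adjusted p = 0.109). That made 1 higher and 2 lower of 4 tested (75%, beside 45.8% of all genes), and 1 and 1 with library totals.

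Of the interleukin-6 list, 1 of 5 tested genes was called higher and 1 lower (40%, beside 45.8% of all genes). Il6r, which encodes the interleukin-6 receptor, was at 290, 269 and 389 CPM in normal and 42.2, 56.0 and 32.3 in DEN model rats, a fall of 7.19-fold (log2 -2.85 ± 0.28, edgeR adjusted p = 0.000229). Jak2, the kinase below that receptor, rose (log2 0.99 ± 0.27, adjusted p = 0.0153). The 2 calls of this list became 1 without normal rat 1 and 4 without DEN model rat 17. Il6 itself had 0 counts in the normal and PZH administration rats and 11, 2 and 23 in the DEN model rats, under the filter for testing.

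Tfr2, the iron sensor of hepatocytes (ENSRNOG00000001407, chr12:22177382-22194299), was at 655, 453 and 533 CPM in normal, 83.1, 191 and 66.5 in DEN model and 412, 266 and 205 in PZH administration rats. Every DEN model rat was below every other rat, and every PZH administration rat lay between the other groups. Tfr2 fell 4.75-fold in the DEN model (log2 -2.25 ± 0.41, edgeR adjusted p = 0.00294).

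Tfrc, the receptor that takes up transferrin-bound iron and is high in dividing and erythroid cells (ENSRNOG00000001766, chr11:71397383-71419223), was at 44.3, 82.3 and 76.9 CPM in normal, 220, 357 and 175 in DEN model and 92.9, 165 and 218 in PZH administration rats. The normal rats were the 3 lowest of the 9, and the PZH administration rats overlapped with the DEN model. Tfrc rose 3.72-fold in the DEN model (log2 1.90 ± 0.35, edgeR adjusted p = 0.00293).

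The order of the transferrin receptors turned over in the DEN model. Per transcript length, the ratio of Tfrc to Tfr2 in FPKM within a rat, which no scaling between libraries can alter, was 0.0541, 0.146 and 0.116 in normal rats, 2.12, 1.5 and 2.11 in DEN model rats and 0.180, 0.497 and 0.851 in PZH administration rats. Tfr2 exceeded Tfrc in every normal and PZH administration rat, and Tfrc exceeded Tfr2 in every DEN model rat. This ratio was chosen after the values were seen and was not tested.

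Tf, the plasma iron carrier made by hepatocytes (chr8:111673547-111721333), was at 34460, 40140 and 34780 CPM in normal, 16260, 26430 and 12150 in DEN model and 39030, 35690 and 36970 in PZH administration rats. It was among the 11 highest genes by FPKM in all 9 rats. The DEN model rats were the 3 lowest, yet their own spread was wide and Tf was not called (log2 -0.98 ± 0.58, edgeR adjusted p = 0.196). It was called without DEN model rat 17 (log2 -1.35, adjusted p = 0.0191) and by DESeq2 (adjusted p = 0.004).

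Slc39a14, the zinc and iron importer ZIP14 (chr15:51982982-52029816), was at 394, 480 and 337 CPM in normal, 127, 254 and 118 in DEN model and 374, 309 and 358 in PZH administration rats. Rat 17 was again the highest of the DEN model rats, and the PZH administration rats ran from just below the normal range to within it. Slc39a14 fell 2.40-fold in the DEN model (log2 -1.26 ± 0.34, edgeR adjusted p = 0.015). The call was lost without rat 13 (log2 -1.10, adjusted p = 0.063), without rat 24 (log2 -1.06, adjusted p = 0.0542) and with library totals (log2 -0.45, adjusted p = 0.147).

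Slc11a2, which carries iron across the endosome membrane (chr7:142025815-142063212), was at 30.8, 43.0 and 36.2 CPM in normal, 28.3, 31.6 and 26.3 in DEN model and 26.4, 40.0 and 41.6 in PZH administration rats. It was the single identifier whose normal and DEN model rats overlapped, and it was not called (log2 -0.34 ± 0.18, edgeR adjusted p = 0.163). Its sign turned with library totals, which gave 0.52 (adjusted p = 0.0379), still under the 0.89 of the median gene in that setting.

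Slc40a1, which encodes ferroportin (ENSRNOG00000003872, chr9:52894365-52912293), was at 219, 304 and 230 CPM in normal, 691, 484 and 451 in DEN model and 179, 284 and 569 in PZH administration rats. Ferroportin was high in every DEN model rat, and the PZH administration rats ran from below the normal rats to within the DEN model range. Slc40a1 rose 2.18-fold in the DEN model (log2 1.12 ± 0.27, edgeR adjusted p = 0.00949).

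The other Slc40a1 identifier (ENSRNOG00000049995, chr9:52820683-52830457) had 7 to 63 counts a rat, and reads shared with the main one cannot be told apart. It gave log2 1.16 ± 0.40 (edgeR adjusted p = 0.0405). That call was lost when any of the 6 rats was left out (adjusted p = 0.0616 to 0.167).

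Fth1 (ENSRNOG00000022619, chr1:226030938-226033228) was at 1094, 1540 and 1161 CPM in normal, 3885, 2918 and 3633 in DEN model and 1128, 2267 and 1923 in PZH administration rats. The DEN model rats were the 3 highest of the 9. Fth1 rose 2.78-fold (log2 1.47 ± 0.33, edgeR adjusted p = 0.00745). Its FPKM rank went from 43 to 59 in normal to 8 to 17 in DEN model rats, and was 23 to 54 in PZH administration rats.

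The ferritin light chain did not move with the heavy chain. Ftl1 has near-identical copies in the table that could split its reads, so its 4 rows were summed, a choice made after the values were seen. The sum was 2024 ± 655 CPM in normal, 1573 ± 470 in DEN model and 1231 ± 261 in PZH administration rats (SD, n = 3 each). The Ftl1 row alone was not called in the DEN model (log2 -0.29 ± 0.32, edgeR adjusted p = 0.482). Ncoa4, the cargo receptor that delivers ferritin to autophagy, gave log2 0.02 ± 0.23 (adjusted p = 0.953). This left Fth1 as the 1 gene called of 4 tested in the storage list (25%, beside 45.8% of all genes). With library totals and with limma on FPKM 2 of the 4 were called higher, and the list's median went from -0.14 to 0.70 and 0.72. The median of all genes went from 0.03 to 0.89 and 0.66 in these settings.

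Ireb2, which encodes iron regulatory protein 2 (chr8:59420123-59501118), was at 114, 124 and 102 CPM in normal, 67.7, 83.8 and 75.2 in DEN model and 73.3, 105 and 96.5 in PZH administration rats. It fell 1.48-fold in the DEN model with TMM factors (log2 -0.57 ± 0.18, edgeR adjusted p = 0.0282) but had log2 0.29 with library totals (adjusted p = 0.19), under the 0.89 of the median gene there. The call was also lost without DEN model rat 13 (adjusted p = 0.132), DEN model rat 24 (adjusted p = 0.0944) or normal rat 1 (adjusted p = 0.0628).

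Aco1, which encodes the other iron regulatory protein, fell from 337 ± 13.8 to 153 ± 29.7 CPM (log2 -1.13 ± 0.22, edgeR adjusted p = 0.00393). Fbxl5, which has both proteins degraded when iron is plentiful, gave log2 -0.004 ± 0.22 (adjusted p = 0.99). This list of 3 genes had 0 higher and 2 lower (66.7%, beside 45.8% of all genes), and 1 higher and 0 lower with library totals. The 2 became 1 without DEN model rat 13, DEN model rat 24 or normal rat 1.

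**Figure D2:**
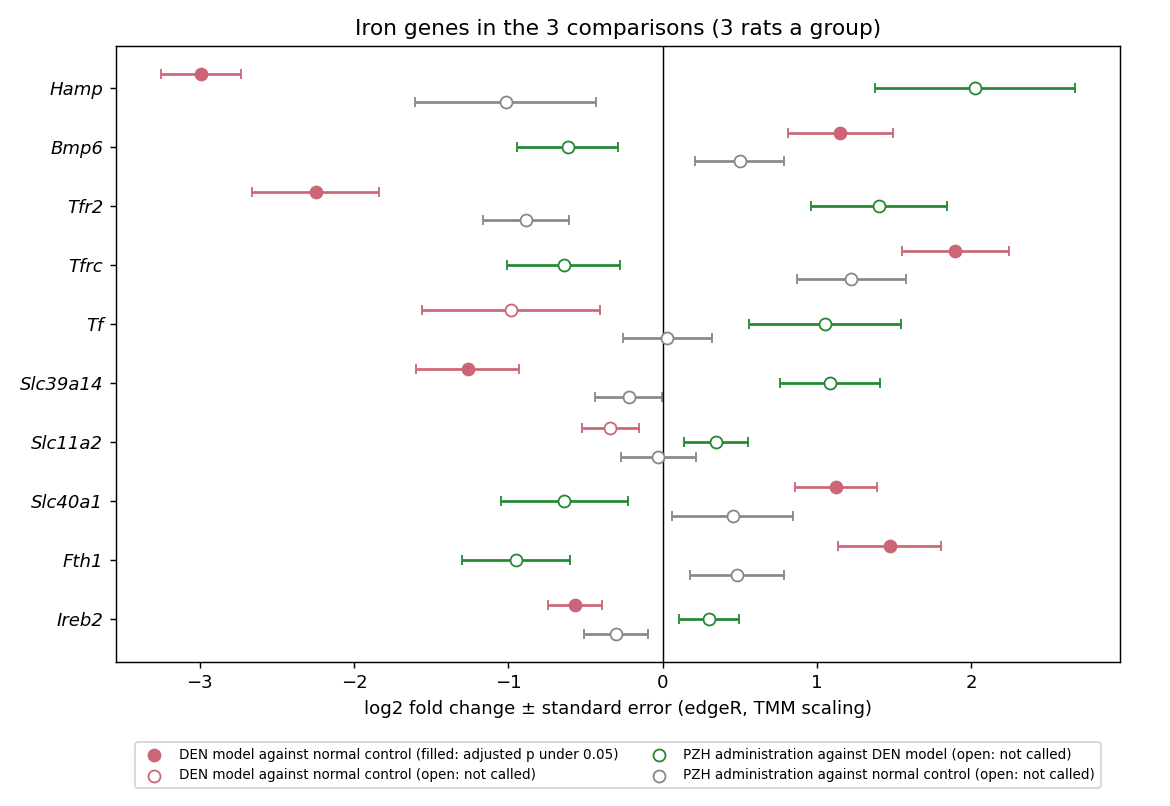
Log2 fold change (edgeR with TMM factors, x axis) of the 10 iron genes in the 3 comparisons, with whiskers of 1 SE from 3 rats a group. Filled points had an adjusted p under 0.05. All filled points belong to DEN model against normal control, from -2.99 for Hamp to 1.90 for Tfrc, and every PZH administration point is open.

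The wider list of transferrin and membrane iron transport held the largest log2 fold changes of the 8 iron lists. This list includes Tf, Tfrc, Tfr2, Slc11a2, Slc39a14 and both Slc40a1 identifiers, so their calls given above are counted in it again. Of its 18 tested identifiers, 7 were called higher and 6 lower in the DEN model (11 and 2 with library totals). That was 72.2% of the list, beside 45.8% of all genes. With 1 rat left out 9 to 13 identifiers were called, the fewest without DEN model rat 24 (5 higher and 4 lower). Lcn2, which encodes lipocalin 2, a neutrophil and epithelial protein that binds bacterial iron carriers, went from 1.33, 1.18 and 2.21 CPM in normal to 87.1, 55.3 and 71.7 in DEN model rats (log2 5.51 ± 0.31, edgeR adjusted p = 2.1e-05). Heph, a ferroxidase that works beside ferroportin in the gut, went from 1.72 ± 0.56 to 57.8 ± 29.9 CPM (log2 5.08 ± 0.45, adjusted p = 0.000152).

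The metal reductases of the Steap family split. Steap2 (log2 4.0 ± 0.42, edgeR adjusted p = 0.000279) and Steap1 (log2 3.14 ± 0.96, adjusted p = 0.0273) rose from near 0, and Steap3, the reductase of transferrin endosomes, fell from 24.6 to 12.5 CPM (log2 -0.96 ± 0.21, adjusted p = 0.0063). Also lower were Slc39a8, which encodes the importer ZIP8 (log2 -1.69 ± 0.18, adjusted p = 0.000291), Cp, the plasma ferroxidase ceruloplasmin made by hepatocytes (log2 -1.20 ± 0.40, adjusted p = 0.0359), and Slc22a17, a receptor for lipocalin 2 (log2 -1.10 ± 0.27, adjusted p = 0.0106).

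Of 18 haem genes tested 7 were called (38.9%, beside 45.8% of all genes) and 11 were not. With TMM factors 1 was higher, the haem transporter gene Slc48a1 (log2 1.35 ± 0.25, edgeR adjusted p = 0.00331), and 6 were lower, among them Lrp1, a receptor for haem bound to hemopexin (log2 -1.50), and the haem synthesis enzyme genes Alad (log2 -1.19) and Cpox (log2 -1.0). The lower ones became 4 without DEN model rat 13, DEN model rat 24 or normal rat 12, and 10 without DEN model rat 17. With library totals the haem list had 3 higher and 1 lower, and Urod, called lower with TMM factors, had log2 0.31, under the 0.89 of the median gene there. Hmox1, the inducible haem oxygenase (log2 0.67 ± 0.34, adjusted p = 0.136), Hpx, hemopexin (log2 -1.53 ± 0.59, adjusted p = 0.0611), and Hp, haptoglobin (log2 -1.53 ± 0.58, adjusted p = 0.0599), were not called.

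Of 11 tested identifiers of mitochondrial iron and iron-sulphur assembly, 0 were higher and 7 lower (63.6%), led by Glrx5 (log2 -1.54 ± 0.26, edgeR adjusted p = 0.00197). Of all genes 45.8% were called, 20.5% lower. The 7 became 4 without DEN model rat 13, DEN model rat 24 or normal rat 1. The count was 2 higher and 1 lower with library totals, where Iscu and Lyrm4 turned to log2 0.35 and 0.23, under the 0.89 of the median gene there. The medians of these lists, -0.52 for haem and -0.64 for mitochondrial iron, stand beside 0.03 for all genes.

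**Figure D3:**
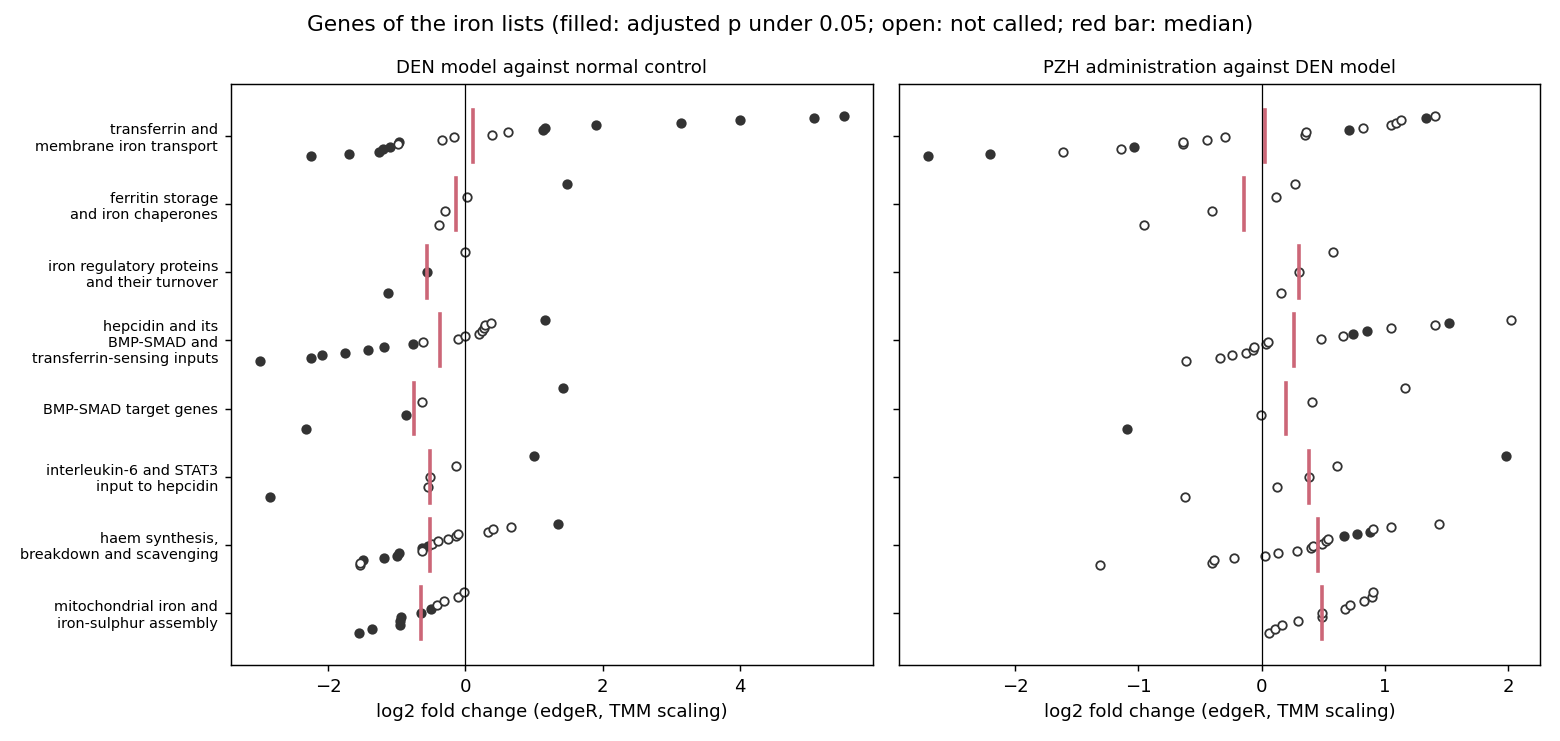
Log2 fold change (edgeR with TMM factors, x axis) of each tested gene of the 8 iron lists in DEN model against normal control (left) and PZH administration against DEN model (right), filled where the adjusted p was under 0.05, with a red bar at each list's median. On the left the transport list reaches 5.51 (Lcn2) while all filled points of the mitochondrial list are below 0. On the right fewer points are filled and the mitochondrial list has 0.

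Markers of other cells moved with the DEN model. Beside the lower hepatocyte sum, the summed FPKM of stellate cell and fibroblast markers was 25.7 to 50.1 in normal and 251 to 1022 in DEN model rats, and that of cholangiocyte and progenitor markers 5.72 to 9.27 and 131 to 665. Cell cycle markers summed to 19.9 to 23.5 and 85.2 to 151, and granulocyte markers to 1.80 to 2.58 and 28.2 to 66.3, with Mpo and Elane at 0 in each normal rat. In FPKM the sums of macrophage and Kupffer cell markers (171 to 347 and 231 to 314), sinusoidal endothelium markers (86.4 to 110 and 77.3 to 131) and erythroid markers (366 to 1483 and 569 to 5128) overlapped between these groups. FPKM carries no TMM factors, which were higher in the DEN model than in the normal rats, so this overlap need not hold with them. The edgeR calls use TMM factors, and some of these genes were called, where 45.8% of all genes were. Of 7 macrophage and Kupffer cell markers tested 0 were higher and 3 lower (Marco, log2 -2.72, Vsig4, -1.54, and Clec4f, -1.28). The other 4 were not called, with Cd68 (log2 0.50), Adgre1 (0.57) and Csf1r (0.53) above 0 and Cd163 (-0.11) below. Marco was uneven in the normal rats, at 28.3, 17.2 and 139 CPM in rats 1, 3 and 12. Of 7 endothelium markers, those of the cells that make Bmp2 and Bmp6, 4 were lower, led by Clec4g (log2 -2.10), Fcgr2b (-1.67) and Kdr (-1.15), and 1 was higher (Cdh5, 0.98). Of 8 erythroid identifiers 2 were higher, Slc4a1 (log2 1.87) and Ank1, which was at 0 in each normal rat. In PZH administration rats stellate cell markers summed to 108 to 129, cholangiocyte markers to 36.0 to 46.3, cell cycle markers to 25.6 to 52.5 and granulocyte markers to 5.02 to 5.55. In FPKM, which carries no TMM factors, their erythroid sums of 253 to 356 and macrophage sums of 96.5 to 219 lay below those of every DEN model rat. With TMM factors single genes overlapped. PZH administration rat 27 stood above DEN model rat 24 in Clec4f (252 and 80.1 CPM) and the more abundant Hba-a2 identifier (125 and 90.1 CPM). EdgeR called 5 of 8 erythroid and 3 of 7 macrophage markers lower than in the DEN model (the latter being Cd68, Adgre1 and Csf1r). It called 2 of 7 endothelium markers (Clec4g and Fcgr2b) and 2 of 6 hepatocyte markers higher. Also called lower were 5 of 5 cholangiocyte, 3 of 3 tested granulocyte, 4 of 6 stellate cell and 3 of 7 cell cycle markers. Of all genes 19.1% were called in this comparison. The part of these cells in the iron gene results was not tested.

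Within the DEN model, Tfr2, Tf and Slc39a14 were highest in rat 17 and lowest in rat 24, as was the hepatocyte marker sum (28340 in rat 17, 20980 in rat 13 and 15520 in rat 24). Hamp did not follow that order, being lowest in rat 17. Nor did Hnf4a, a marker within that sum, at 212, 366 and 244 CPM in rats 13, 17 and 24, while the other hepatocyte markers did. Tfrc was 220, 357 and 175 CPM in rats 13, 17 and 24, where the cell cycle sum was 103, 85.2 and 151 and the erythroid sum 5128, 1804 and 569.

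PZH administration against DEN model gave 0 calls among the 11 identifiers with edgeR, where 19.1% of the 14272 genes tested were called, 8.72% higher and 10.3% lower. The unadjusted p was under 0.05 for 4 (Hamp, Tfr2, Slc39a14 and Fth1), DESeq2 called 5, with Hamp, Tfr2, Tf and Slc39a14 higher and Fth1 lower, and limma on FPKM called 4, with Tfrc, Slc40a1, Fth1 and Bmp6 lower. CPM did not overlap for 4 identifiers (Tfr2, Tf and Slc39a14 higher, Fth1 lower), against 40.8% of all genes. At the study's thresholds 0 of the 11 were called, where 2.43% of all genes were.

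The point estimates came with wide errors. Hamp gave log2 2.02 ± 0.65 (edgeR adjusted p = 0.0611), Tfr2 1.40 ± 0.44 (adjusted p = 0.0591), Slc39a14 1.09 ± 0.32 (adjusted p = 0.0502), Tf 1.05 ± 0.49 (adjusted p = 0.17) and Fth1 -0.95 ± 0.35 (adjusted p = 0.0913). Without DEN model rat 17, the DEN model rat with the most hepatocyte marker RNA, Tfr2 (log2 1.98, adjusted p = 0.00721), Tf (1.40, adjusted p = 0.0173), Slc39a14 (1.51, adjusted p = 0.0033) and Fth1 (-1.08, adjusted p = 0.0482) were called. Hamp was called without PZH administration rat 42 (2.48, adjusted p = 0.0403), and without rat 27 it was 0.90 (adjusted p = 0.132).

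Tfrc (log2 -0.64 ± 0.37, edgeR adjusted p = 0.251), Slc40a1 (-0.64 ± 0.41, adjusted p = 0.306) and Bmp6 (-0.62 ± 0.33, adjusted p = 0.221) overlapped between the groups. With library totals these 3 and Fth1 were the genes called, all 4 lower, and the median gene was at -0.67. Slc11a2 was at 0.35 and Ireb2 at 0.30 with TMM factors but at -0.30 and -0.35 with library totals, none of them called.

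**Figure D4:**
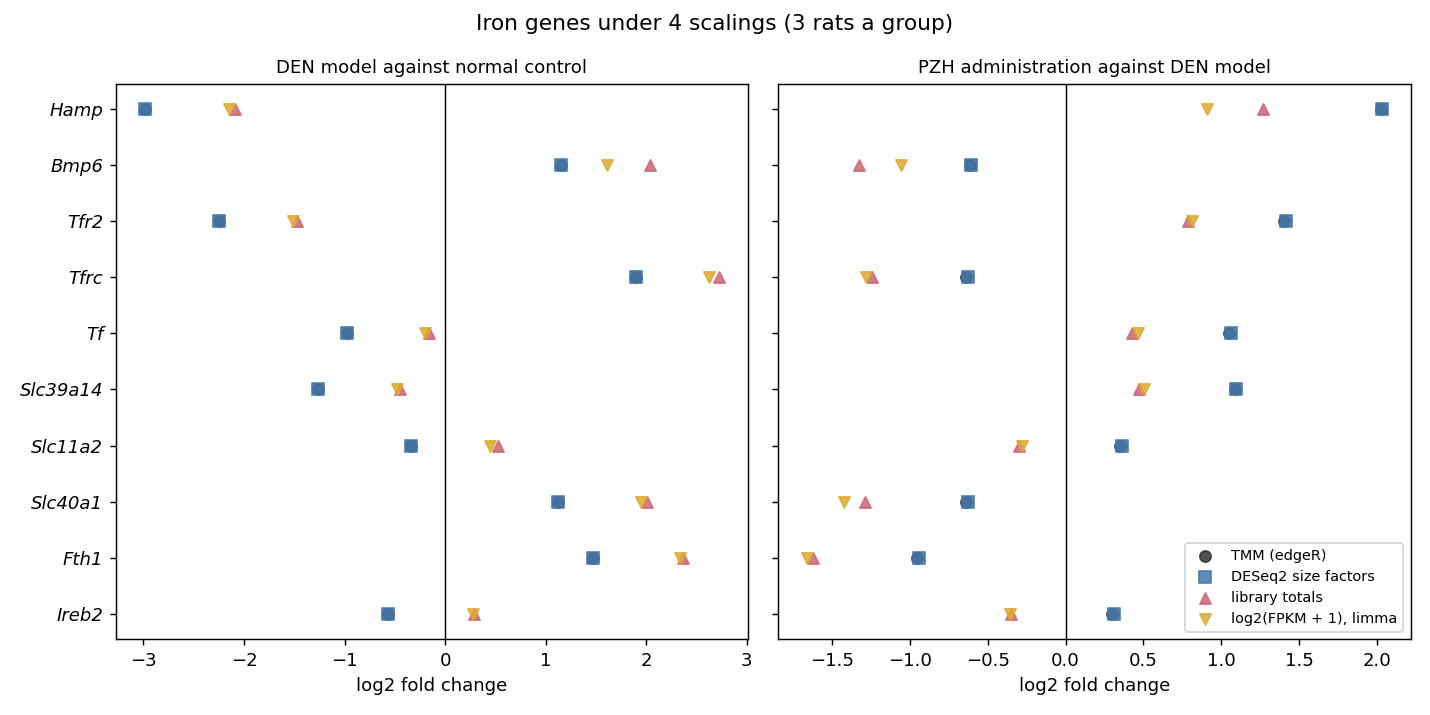
Log2 fold change (x axis) of the 10 iron genes under TMM factors, DESeq2 size factors, library totals and log2(FPKM + 1) with limma, for DEN model against normal control (left) and PZH administration against DEN model (right). Library totals and FPKM shift every gene to the right on the left panel and to the left on the right panel, and Slc11a2 and Ireb2 cross 0 in both.

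The 3 PZH administration rats differed more among themselves in Hamp and Slc40a1 than the rats of the other groups did. Whether these 3 rats shared a PZH dose or a week of killing is not known. The highest rat had 7.33 times the Hamp of the lowest, against 1.18 times in normal and 1.60 times in DEN model rats. For Slc40a1 these ratios were 3.18, 1.39 and 1.53 in the PZH administration, normal and DEN model rats. Rat 27 had the highest Hamp (538 CPM) and Tfr2 (412) with the lowest Slc40a1 (179), Tfrc (92.9) and Fth1 (1128) of its group, and rat 42 had the lowest Hamp (73.4) and Tfr2 (205) with the highest Slc40a1 (569) and Tfrc (218). The hepatocyte marker sum was 58550 in rat 27, 45490 in rat 28 and 41040 in rat 42, and the macrophage sum 219, 169 and 96.5, and their part was not tested.

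Of the hepcidin list, 3 of 16 tested genes were called higher than in the DEN model and 0 lower, a share of 18.8% beside the 19.1% of all genes. Tmprss6 rose from 132 ± 49.9 CPM in the DEN model to 370 ± 67.9 in the PZH administration group (log2 1.52 ± 0.31, edgeR adjusted p = 0.0174). Bmp2 rose from 11.03 ± 2.40 to 19.6 ± 1.34 CPM (log2 0.86 ± 0.21, adjusted p = 0.0298), and Hfe rose (log2 0.74 ± 0.21, adjusted p = 0.0439). With library totals 1 was higher and 5 lower. With TMM factors the count was 0 without DEN model rat 13 or 24, 1 without PZH administration rat 28 and 5 without DEN model rat 17. Hjv was at log2 1.05 ± 0.43 (adjusted p = 0.128).

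Il6r rose from 43.5 ± 11.9 to 169 ± 31.6 CPM (log2 1.98 ± 0.26, edgeR adjusted p = 0.00891), the 1 call of 5 in its list (20%, beside 19.1% of all genes). Id1 fell from 12.5 ± 2.79 to 5.80 ± 0.72 CPM (log2 -1.09 ± 0.25, adjusted p = 0.0226), the 1 call of 4 BMP-SMAD targets (25%). That call was lost without DEN model rat 13 or 24 or PZH administration rat 28. With library totals the interleukin-6 list had 1 higher and 1 lower, and the target list was as before.

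In the transport list (27.8% called, beside 19.1% of all genes) 2 of 18 were higher, Slc39a8 (log2 1.33 ± 0.18, edgeR adjusted p = 0.00891) and Steap3 (log2 0.70 ± 0.19, adjusted p = 0.0396), and 3 were lower. These were Lcn2, at 7.13, 13.2 and 12.1 CPM (log2 -2.71 ± 0.28, adjusted p = 0.00513), Heph (log2 -2.20 ± 0.59, adjusted p = 0.0364) and Slc11a1, the iron transporter of phagosomes (log2 -1.04 ± 0.21, adjusted p = 0.0176). With library totals 1 was higher and 7 lower, and with TMM factors the 5 calls became 2 without DEN model rat 13 or 24 or PZH administration rat 42, and 9 without DEN model rat 17. The haem list had 3 higher, Alad (log2 0.88), Cpox (0.77) and Fech (0.67), and 0 lower of 18, a share of 16.7% beside the 19.1% of all genes, against 0 and 3 with library totals. It had 0 calls without DEN model rat 13 or 24 or PZH administration rat 28 or 42, and 6 without DEN model rat 17. The storage list (4 tested), the iron regulatory list (3 tested) and the mitochondrial list (11 tested) had 0 calls with edgeR, where the unadjusted p was under 0.05 for 1, 1 and 4 genes, DESeq2 called 1, 0 and 3, and limma on FPKM called 2, 0 and 0, as did edgeR with library totals (both storage genes lower).

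PZH administration against normal control shares its rats with the comparisons above. It gave 0 calls among the 11 identifiers, where 5.21% of the 13348 genes tested were called, 4.07% higher and 1.15% lower. The unadjusted p was under 0.05 for 2, Tfrc and Tfr2, which DESeq2 called, limma did not call and whose groups did not overlap, as was the case for 24.2% of all genes. At the study's thresholds 0 of the 11 and 2.32% of all genes were called. Tfrc gave log2 1.22 ± 0.35 (edgeR adjusted p = 0.0889) and Tfr2 -0.88 ± 0.28 (adjusted p = 0.118).

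Tf was at 37230 ± 1684 CPM in the PZH administration group and 36460 ± 3190 in the normal control (log2 0.03 ± 0.29, edgeR adjusted p = 0.972). Hamp gave log2 -1.02 ± 0.59 (adjusted p = 0.407), which became -2.13 and was called (adjusted p = 0.0078) without rat 27, as were Tfrc (1.49, adjusted p = 0.0139) and Tfr2 (-1.21, adjusted p = 0.0165). In the lists, 3 transport genes of 17 (17.6%, beside 5.21% of all genes) were called higher, Heph (log2 2.85 ± 0.59, adjusted p = 0.028), Steap2 (2.82 ± 0.54, adjusted p = 0.0207) and Lcn2 (2.77 ± 0.37, adjusted p = 0.00606), and 0 lower. The 3 became 1 without normal rat 1, 3 or 12 or PZH administration rat 28 or 42, 4 higher and 1 lower without rat 27, and 1 with limma on FPKM. The other 7 lists had 0 calls with edgeR and with limma, while the unadjusted edgeR p was under 0.05 for 1 to 4 genes a list and DESeq2 called 0 to 3 genes a list.

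Set in order of FPKM, which corrects for transcript length, the members ran in the normal livers from Tf (8244 ± 302) over Fth1 (1173 ± 162), Hamp (1127 ± 46.6), Tfr2 (111 ± 24.7), Slc39a14 (65.9 ± 8.60), Slc40a1 (59.7 ± 7.80), Ireb2 (23.5 ± 1.42) and Tfrc (10.9 ± 3.09) to Slc11a2 (4.68 ± 0.58) and Bmp6 (2.55 ± 0.70). Fth1 and Hamp overlapped, as did Slc39a14 and Slc40a1, and the other neighbours did not. In the DEN model livers Fth1 (6037 ± 1534) reached the range of Tf (7353 ± 1908), and Slc40a1 (239 ± 70.1) that of Hamp (264 ± 90.5). Tfrc (72.1 ± 16.8) stood above Tfr2 (40.0 ± 17.9), with Slc39a14 (48.1 ± 14.8) overlapping both. In the PZH administration livers the order was Tf (9915 ± 244), Fth1 (1963 ± 708), Hamp (637 ± 577), Slc40a1 (98.2 ± 60.7), Tfr2 (69.2 ± 21.6), Slc39a14 (66.8 ± 5.37) and Tfrc (30.6 ± 13.1), with Fth1 overlapping Hamp, and Slc40a1, Tfr2 and Slc39a14 overlapping their neighbours.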

How the data were processed

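Liver mRNA of 9 rats was sequenced by the authors, with 1 library per rat. The deposited table holds whole-number read counts per gene and rat that the authors did not normalize, and FPKM that the authors scaled for transcript length and library size. The submitters' processing notes name fastp, HISAT2 2.1.0, StringTie 1.3.3b and edgeR 3.30.3, and the genome build is not given in the sources used here. The table's columns of group comparisons made by the authors (their fold changes with P and Q) were left out.

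Counts were tested in R 4.3.3 with edgeR 4.0.16 by its quasi-likelihood test after filterByExpr and TMM scaling. Each fit took the 6 rats compared and no covariate, with Benjamini-Hochberg adjustment over all genes tested. DESeq2 1.42.0, limma 3.58.1 on log2(FPKM + 1), library totals, other count filters, a fit of all 3 groups and the omission of each rat were alternatives. The steps were tested on simulated data. FPKM compared genes and CPM compared rats. Depth limits genes with few reads, such as Bmp6 and the low Slc40a1 identifier, and errors are SD or SE over 3 rats. Promoters are from RefSeq (GRCr8) and were matched by symbol.

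The members, the 8 iron lists and the marker lists were chosen with earlier results of these data known. Named from a list were up to 4 called genes with the largest changes in a comparison, and a fixed set of regulators and carriers whether called or not. Il6, Erfe, Atoh8 per rat, the Tfrc to Tfr2 ratio, the light chain sum and the genes whose sign turned with the scaling were chosen after their values were seen. Some genes of the lists are not reported here by name.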

Additional observations from a re-analysis of the deposited data

How the results depend on the processing

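Across the settings tried, 324 of 393 recomputed values kept direction and side of the threshold, 29 gained a call, 19 lost one and 21 turned sign. For DEN model against normal control, 9 identifiers were called, 2 at the study's thresholds and 5 to 9 with 1 rat left out (5 without rat 13). For PZH administration against DEN model, 0 were called, but 5 by DESeq2, 4 with library totals, 3 with all 3 groups in 1 fit, 4 by limma on FPKM and 0 to 4 with 1 rat left out (4 without rat 17). For PZH administration against normal control, 0 were called, but 2 by DESeq2, 1 with library totals and 0 to 3 with 1 rat left out (3 without rat 27). The cause of the other differences was not tested.

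Values that turned sign were these. With library totals and with limma, Slc11a2 was 0.52 and 0.45 and Ireb2 0.29 and 0.28 in DEN model against normal control, Slc11a2 was -0.30 and -0.28 and Ireb2 -0.35 and -0.35 in PZH administration against DEN model, and Slc39a14 was 0.021 and 0.025 and Slc11a2 0.22 and 0.16 in PZH administration against normal control, where Slc11a2 was 0.014 with at least 10 counts in every rat. With 1 rat left out, the low Slc40a1 identifier ranged from -1.35 to 0.24 in PZH administration against DEN model (0.24 without rat 27). In PZH administration against normal control, Tf ranged from -0.035 to 0.13, Slc40a1 from -0.12 (without rat 42) to 0.76, the low Slc40a1 identifier from -0.24 (without rat 42) to 1.36 and Slc11a2 from -0.16 to 0.15. None of the values that turned sign was a call with all rats and TMM factors, except Ireb2 in DEN model against normal control.

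No paired analysis was possible because the rat numbers are not shared between the groups.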

Other observations

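As a description over 9 rats, 9423 genes with a mean of at least 5 CPM and an official symbol were compared, and genes with placeholder symbols such as LOC were left out. Among these, the genes whose log2(CPM + 1) followed Hamp most closely were Mrps25, a mitochondrial ribosome gene (Pearson r = 0.97), Baiap2l1 (0.97), Ecm1, an extracellular matrix gene (0.97), Ppid, a cyclophilin (0.97), and Gde1 (0.96). Ecm1 was at 192 ± 27.6 CPM in normal, 47.8 ± 4.91 in DEN model and 103 ± 41.8 in PZH administration rats. Those closest to Tfrc were Il17rb, an interleukin receptor (0.98), Slc35e3 (0.97), Zmym3 (0.96), Tk1, a thymidine kinase of dividing cells (0.96), and Brca1, a DNA repair gene (0.96). Tk1 was at 6.12 ± 1.01, 19.0 ± 5.57 and 12.2 ± 1.58 CPM in these groups. The points share the 3 groups and the scaling of the libraries.

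DEN model rat 17 lay nearest to the normal mean of its group in 8 of the 11 identifiers. Within the PZH administration group, rat 27 did so in 5, rat 28 in 4 and rat 42 in 2.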
